A study of Mus musculus with 30 samples.

Results

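A set of 10 genes of fatty acid uptake and activation, out of 54232 genes in the count table, was followed in 3T3-L1 cells. They are Lpl, Fabp4, Fabp5, Slc27a1, Slc27a3, Slc27a4, Acsl1, Acsl3, Acsl4 and Acsl5, and all 10 entered the 20139 genes tested. They were taken by name and not by any measured value, but with earlier results of these data known. 3T3-L1 is a single mouse preadipocyte line, and all 6 groups of 5 libraries had been kept in adipogenic medium. The groups were untreated cells (Control), cells given pNaKtide at 0.7 µM, indoxyl sulphate (IS) at 100 µM, IS with the same dose of pNaKtide (IS+pNaKtide), oxidized LDL (oxLDL) at 50 µg/mL, and oxLDL with pNaKtide (oxLDL+pNaKtide). pNaKtide is a cell-permeant peptide made to dampen the amplification of oxidants by the Na,K-ATPase, IS is a solute that is retained in renal failure, and oxLDL was used to bring about oxidant stress. The labels give 5 days of treatment and the methods a shorter repeated schedule, so the exposure behind the values is uncertain. The sources used here do not say whether the libraries of a group came from separate cultures, and the p-values then measure only the spread between these libraries.

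Fat cells obtain fatty acids largely from circulating triglyceride, which lipoprotein lipase splits at the vessel wall. The acids cross the plasma membrane with the help of fatty acid transport proteins, travel in the cytosol on fatty acid-binding proteins, and are joined to coenzyme A by long-chain acyl-CoA synthetases before they can be stored as triglyceride, put into membranes or burnt. In mature fat cells lipoprotein lipase, Fabp4 and Acsl1 are the abundant members of this chain, and Fabp4 is used as a marker of adipocyte differentiation.

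The libraries held 6945498 to 15159877 counted reads. The identity of the cells was checked on marker genes. All 8 adipocyte markers were present, with Cidec at a mean of 5240 CPM (read counts scaled to a common library size after TMM normalization, the unit of all levels given here unless stated) and Adipoq at 1015 CPM. Of the 5 macrophage markers Ptprc had 0 counts and Adgre1 4 counts over all 30 libraries, whereas Cd68 had 1569, Lyz2 518 and Csf1r 65. Of the 4 endothelial markers Pecam1 had 79 counts, Cdh5 6 counts and Kdr and Tek 8 counts each. There were 4 libraries that stood apart from their groups on the first principal component, which held 64.4% of the variance of log2 CPM over 12580 genes. Control replicate 1 lay at -25.8, inside the range of oxLDL (-41.9 to -14.7). IS replicate 4 lay at 28.2, far from the -36.7 to -23.2 of its group, and pNaKtide replicate 3 was the lowest of its group at -5.4. oxLDL+pNaKtide replicate 4, the smallest library, lay at 67.5, above the 14.5 to 33.2 of its group.

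Per length, in the FPKM values that the authors deposited, the 10 genes covered a wide range of levels. Fabp4 was highest, at 557 ± 58.9 FPKM (SD over the 30 libraries), followed by Lpl at 364 ± 40.2 and Acsl1 at 331 ± 37.4, 2 levels within 1 SD of each other, and Fabp5 at 290 ± 67.4. The order of these first genes depends on the length used. The deposited FPKM ran in proportion to counts divided by the merged exons of all transcripts, 10478 bases for Lpl, 10483 for Acsl1 and 4489 for Fabp4. By CPM per kilobase of the longest transcript Lpl came first at 935, with Acsl1 at 618 and Fabp4 at 596. Slc27a4 lay at 30.8 ± 8.48 FPKM. Acsl5 (13.6 ± 1.34 FPKM) and Slc27a1 (13.4 ± 2.13) did not differ beyond their spread, and neither did Acsl3 (7.91 ± 1.43) and Acsl4 (7.32 ± 2.12). Slc27a3 was lowest, at 0.80 ± 0.27 FPKM and 3 to 51 counts per library, so its values are the least precise. Acsl5 spanned the narrowest range and Slc27a3 the widest. From the lowest to the highest of the 30 libraries, the CPM of Lpl, Fabp4, Acsl1 and Acsl5 spanned 1.48- to 1.53-fold, those of Slc27a1 and Fabp5 1.92- and 2.13-fold, those of Slc27a4, Acsl3 and Acsl4 2.58-, 2.68- and 3.79-fold, and those of Slc27a3 9.14-fold.

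**Figure D1:**
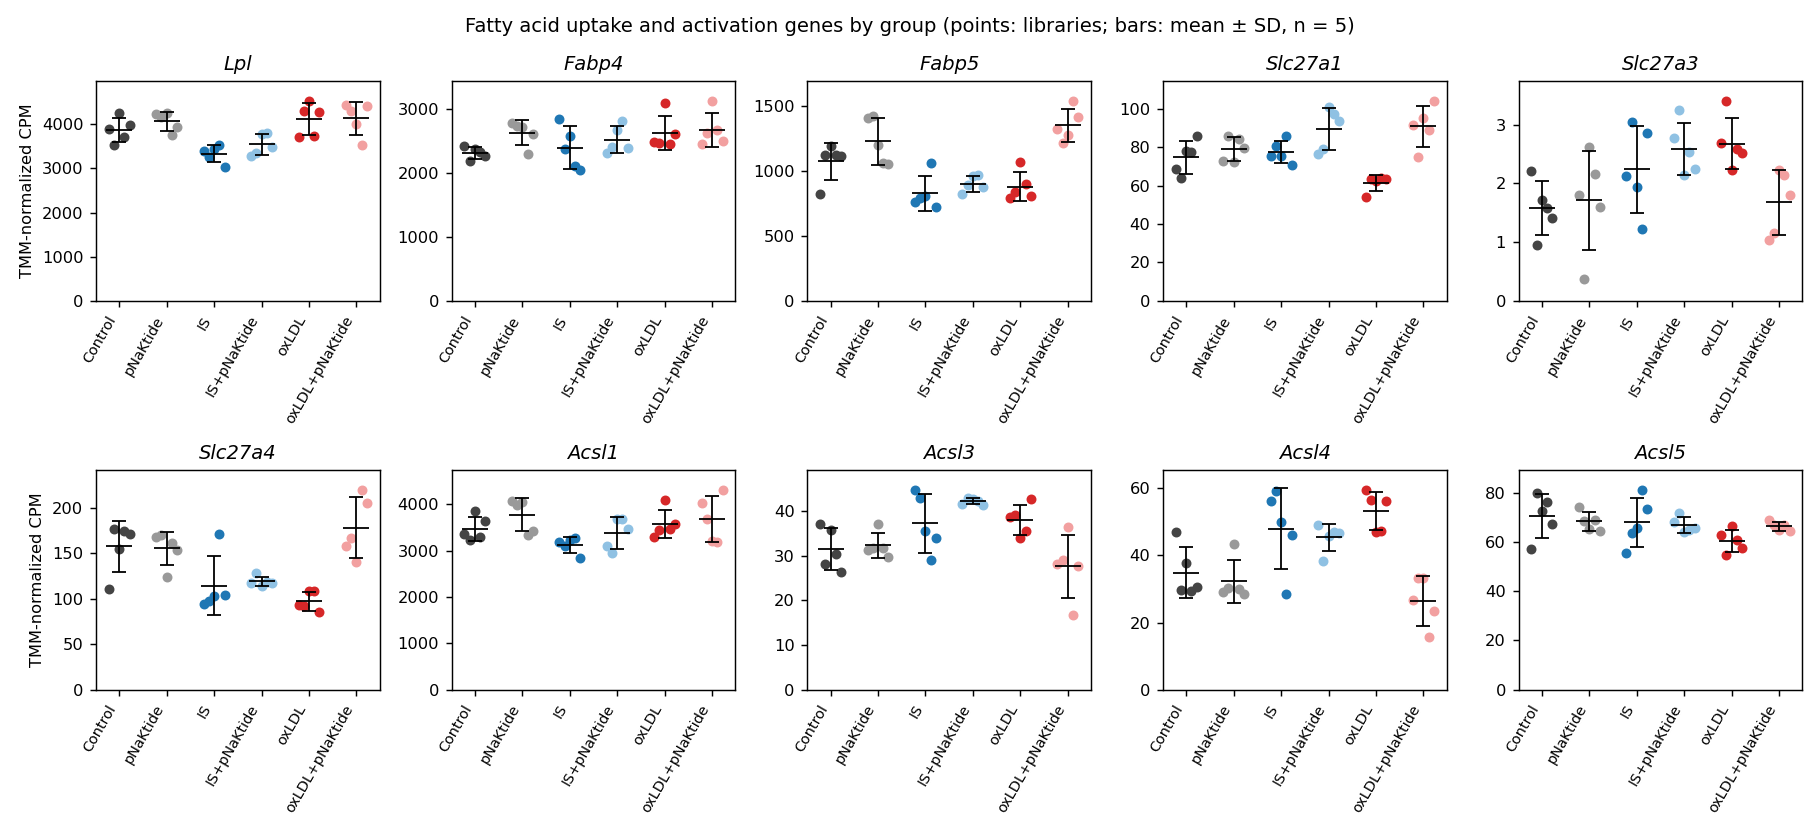
TMM-normalized CPM of each of the 10 genes (vertical axis, from 0) in the 6 groups; points are libraries, and the horizontal and vertical bars are the mean and SD (n = 5). Slc27a4 lies between 85.1 and 109 CPM in the oxLDL libraries and between 140 and 220 CPM in those with oxLDL+pNaKtide, and Acsl4 between 46.9 and 59.6 CPM and between 15.7 and 33.4 CPM.

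The first question was what oxLDL does to these genes in otherwise untreated adipogenic cultures. In the fit of all 6 groups by edgeR's quasi-likelihood test, 6 of the 10 genes differed between oxLDL-treated and Control cells at a Benjamini-Hochberg (BH)-adjusted p-value below 0.1. Of these, 2 were higher, Acsl4 and Slc27a3, against 18.1% of all genes tested, and 4 were lower, Slc27a4, Slc27a1, Fabp5 and Acsl5, against 18% of all genes. The lipase and the most abundant binding protein and synthetase, Lpl, Fabp4 and Acsl1, were not called, and neither was Acsl3. For 5 genes no oxLDL library overlapped a Control library, as for 8.35% of all genes. The median log2 fold change of the 10 genes was 0.06, and that of all genes tested was 0.04.

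The fatty acid transport proteins, which carry an acyl-CoA synthetase activity of their own, moved in both directions. Slc27a4 (fatty acid transport protein 4, chr2:29802634-29817522, GRCm38) was at 110, 176, 155, 174 and 172 CPM in the Control libraries and at 92.5, 91.4, 108, 109 and 85.1 CPM in the oxLDL libraries. Every oxLDL library was below every Control library, although Control replicate 1 was within 2 CPM of the highest oxLDL library. Its mean fell from 157 ± 27.7 to 97.1 ± 10.6 CPM (SD, n = 5), and the log2 fold change was -0.70 with an SE of 0.14 (edgeR adjusted p = 0.00683).

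Slc27a1 (fatty acid transport protein 1, chr8:71568882-71587302), the form best known for insulin-responsive uptake in muscle and fat, was at 68.6, 64.0, 78.0, 77.6 and 86.0 CPM in Control and at 54.1, 63.4, 62.6, 63.9 and 63.3 CPM with oxLDL. The groups did not overlap, but the gap between them was narrow, and the log2 fold change was -0.28 ± 0.09 (edgeR adjusted p = 0.0266), a call that was lost with the dependence of the libraries on GC content and length removed (-0.07 ± 0.09). Slc27a3 (chr3:90385239-90389938), a family member mainly described as a synthetase inside the cell, had 27, 12, 18, 15 and 15 counts in Control and 38, 50, 18, 32 and 33 with oxLDL. In CPM these groups lay just apart, with a highest Control library at 2.21 and a lowest oxLDL library at 2.22, and the log2 fold change was 0.78 ± 0.27 (edgeR adjusted p = 0.0323). The call for Slc27a3 was lost without Control replicate 2 (0.63, adjusted p = 0.114) and without oxLDL replicate 2 (0.67, adjusted p = 0.101).

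The binding proteins differed from each other. Fabp5 (chr3:10012548-10016607), the epidermal-type fatty acid-binding protein that fat cells make beside Fabp4, was at 821, 1120, 1190, 1120 and 1111 CPM in Control and at 790, 836, 1065, 895 and 805 CPM with oxLDL. Control replicate 1 was the low library here, and without it the remaining Control libraries all lay above the oxLDL libraries. The log2 fold change of -0.29 ± 0.12 passed the threshold (edgeR adjusted p = 0.0617), and it did so in 3 of the 10 fits that left out 1 library of the compared groups, with the largest adjusted p of 0.141 without oxLDL replicate 1. Fabp4 (chr3:10204088-10208576) was at 2181 to 2420 CPM in Control and 2453 to 3087 CPM with oxLDL, and its difference of 0.18 ± 0.10 was not called (adjusted p = 0.175) although the groups did not overlap.

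Part of the reads of Fabp5 cannot be assigned with certainty. Its mRNA matched 5 processed pseudogenes over more than 300 bases at 93.6% to 98.3% identity, the closest being Gm6166, which alone had 130095 counts over the 30 libraries where Fabp5 had 347921. The 5 copies held 31.5% of the summed counts of Fabp5 and its copies, with medians of 30.1% in the oxLDL and 32.6% in the Control libraries. With the counts of all 6 genes added together, an alternative chosen after the data were seen, the log2 fold change was -0.32 ± 0.12 (edgeR adjusted p = 0.0486).

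Among the long-chain acyl-CoA synthetases, Acsl4 (chrX:142317993-142390535), which prefers arachidonic acid and other polyunsaturated fatty acids, rose with oxLDL. It was at 46.9, 29.7, 37.7, 29.4 and 30.4 CPM in the Control libraries and at 59.6, 56.4, 46.9, 47.4 and 56.1 CPM in the oxLDL libraries. Control replicate 1, the highest of its group, touched the lowest oxLDL library, and the others lay well apart. The means were 34.8 ± 7.54 and 53.3 ± 5.75 CPM, and the log2 fold change was 0.61 ± 0.17, or 1.53-fold (edgeR adjusted p = 0.0124). This call was lost, at 0.04 ± 0.07, when the dependence of the libraries on GC content and length was removed. Acsl3 (chr1:78657825-78707743), an enzyme of the endoplasmic reticulum and lipid droplets, was at 26.4 to 37.1 CPM in Control and 34.0 to 42.8 CPM with oxLDL, a difference of 0.27 ± 0.13 that was not called (adjusted p = 0.116).

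Acsl5 (chr19:55251938-55297720), which is found on mitochondria and the endoplasmic reticulum, was at 57.1 to 79.9 CPM in Control and 54.9 to 66.7 CPM with oxLDL. The groups overlapped, and its log2 fold change of -0.22 ± 0.09 (edgeR adjusted p = 0.0582) was lost in 4 of the 10 fits without 1 library, with the largest adjusted p of 0.185 without Control replicate 2. Acsl1 (chr8:46471037-46536051), the main synthetase of fat cells, was at 3476 ± 264 CPM in Control and 3578 ± 311 CPM with oxLDL (log2 fold change 0.04 ± 0.10, 95% interval -0.16 to 0.24). Lpl (chr8:68880491-68907448) was at 3874 ± 274 and 4113 ± 362 CPM (0.09 ± 0.09, 95% interval -0.09 to 0.26). Acsl3 overlaps Utp14b on the same strand over 13475 bases, Acsl5 lies opposite Zdhhc6 over 26430 bases and Acsl1 opposite Gm45244 over 2200 bases. How the counting treated strand and overlap is not known here, so the values of these 3 synthetases are uncertain to that extent.

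Without Control replicate 1 and IS replicate 4, the 6 genes called with oxLDL were called in the same directions, among them Slc27a4 at -0.80 ± 0.10 and Acsl4 at 0.75 ± 0.14 (edgeR adjusted p = 4.00e-06 and 0.000132). Acsl3 was then called as well (0.34 ± 0.12, adjusted p = 0.0263), which made 3 higher, against 25.3% of all genes in that fit, and 4 lower, against 22.7%. Both libraries were picked by their values, Control replicate 1 because it lay among the oxLDL libraries, so that leaving it out widens this difference and the agreement in direction is no support.

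The second question was what pNaKtide does to the genes in the presence of oxLDL. In oxLDL+pNaKtide against oxLDL, again 6 of the 10 genes were called by edgeR. Fabp5, Slc27a1 and Slc27a4 were higher, against 22.1% of all genes tested, and Acsl3, Acsl4 and Slc27a3 were lower, against 26.1%. For 5 genes the groups did not overlap, compared with 28.4% of all genes, and the median log2 fold change was 0.04 for the 10 genes and -0.09 for all genes. This comparison uses the same oxLDL libraries as the one above, so that opposite signs in the 2 comparisons are not independent of each other.

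Slc27a4 was at 157, 167, 140, 220 and 205 CPM with oxLDL+pNaKtide, all above the 5 oxLDL libraries. Its mean of 178 ± 33.4 CPM was 1.83-fold that with oxLDL alone (log2 fold change 0.87 ± 0.14, edgeR adjusted p = 3.34e-05). Slc27a1 was at 91.4, 74.9, 95.1, 88.7 and 104 CPM, likewise without overlap, and rose by 1.48-fold (0.56 ± 0.09, adjusted p = 4.02e-05). The transport proteins 1 and 4 thus moved in the same direction in this comparison, and Slc27a3 in the other. With oxLDL+pNaKtide Slc27a3 had 9, 11, 25, 13 and 18 counts, and its log2 fold change was -0.69 ± 0.28 (edgeR adjusted p = 0.0449). That call was lost in 3 of the 10 fits without 1 library, namely oxLDL replicate 2 and oxLDL+pNaKtide replicates 1 and 2, with adjusted p-values of 0.124, 0.133 and 0.124.

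Fabp5 was at 1320, 1211, 1274, 1536 and 1412 CPM with oxLDL+pNaKtide, above all oxLDL libraries and also above all Control libraries. It rose by 1.54-fold over oxLDL (0.62 ± 0.12, edgeR adjusted p = 0.000112), and by 0.66 ± 0.12 when summed with its pseudogenes (adjusted p = 0.000106). Acsl4 was at 26.6, 33.2, 33.4, 15.7 and 23.4 CPM, all below the oxLDL libraries. Its log2 fold change of -0.997 ± 0.17 passed the threshold (edgeR adjusted p = 6.09e-05), with a mean that dropped to 26.5 ± 7.40 CPM, 0.501 times that with oxLDL, and was -0.24 ± 0.07 with the dependence on GC content and length removed. Acsl3 was at 28.3, 29.0, 36.4, 16.7 and 27.7 CPM, with oxLDL+pNaKtide replicate 3 overlapping the oxLDL libraries and replicate 4 far below, and its change was -0.45 ± 0.13 (edgeR adjusted p = 0.00591), or -0.01 ± 0.08 and not called with the dependence on GC content and length removed. Without oxLDL+pNaKtide replicate 4 the same 6 genes were called, Acsl3 at -0.31 (edgeR adjusted p = 0.0350), and the share of all genes in that fit is not given. Lpl (0.01 ± 0.09), Fabp4 (0.03 ± 0.10), Acsl1 (0.04 ± 0.10) and Acsl5 (0.13 ± 0.09) were not called.

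Whether pNaKtide acted differently with oxLDL than alone was tested as a difference of the 2 changes in the same fit. In untreated cells pNaKtide changed none of the 10 genes past the threshold, with edgeR calling 0% of all genes higher and 0.00497% lower, DESeq2 calling none of the 10, and no member below an unadjusted p-value of 0.05 where 1233 of all genes were. The change with oxLDL exceeded the change alone for Slc27a4 (by 0.89 ± 0.20, edgeR adjusted p = 0.0188), Slc27a1 (0.49 ± 0.13, 0.0264) and Fabp5 (0.43 ± 0.16, 0.0716), 3 genes against 12.8% of all genes. It was lower for Acsl4 (-0.89 ± 0.25, edgeR adjusted p = 0.0268) and Acsl3 (-0.49 ± 0.19, 0.0680), 2 genes against 11.8%. The difference for Slc27a3, -0.86 ± 0.41, did not pass (adjusted p = 0.145). Those for Slc27a4, Slc27a1 and Acsl4 were called each time when any 1 of the 20 libraries was left out, with the largest adjusted p-values of 0.0538, 0.0674 and 0.0795 without pNaKtide replicate 3, whereas those for Fabp5 and Acsl3 were called in 8 and 12 of the 20 fits, with the largest adjusted p-values of 0.141 (without oxLDL+pNaKtide replicate 4) and 0.159 (without pNaKtide replicate 3). Without Control replicate 1 and IS replicate 4, 4 genes were called higher, against 19.5% of all genes, and 3 lower, against 20.8%, the 5 genes above with Slc27a3 (-1.04 ± 0.39, adjusted p = 0.0403) and Acsl5 (0.25 ± 0.11, 0.0717) added. With each library's dependence on GC content and length removed, Acsl4 (-0.23 ± 0.10, adjusted p = 0.166), Slc27a1 (0.22 ± 0.13, 0.297) and Acsl3 (-0.11 ± 0.11, 0.608) lost their calls. Then 2 genes were higher, against 5.56% of all genes, namely Slc27a4 (0.58 ± 0.14) and Fabp5 (0.45 ± 0.15), and 1 was lower, against 4.76%, namely Slc27a3 (-1.29 ± 0.45).

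**Figure D2:**
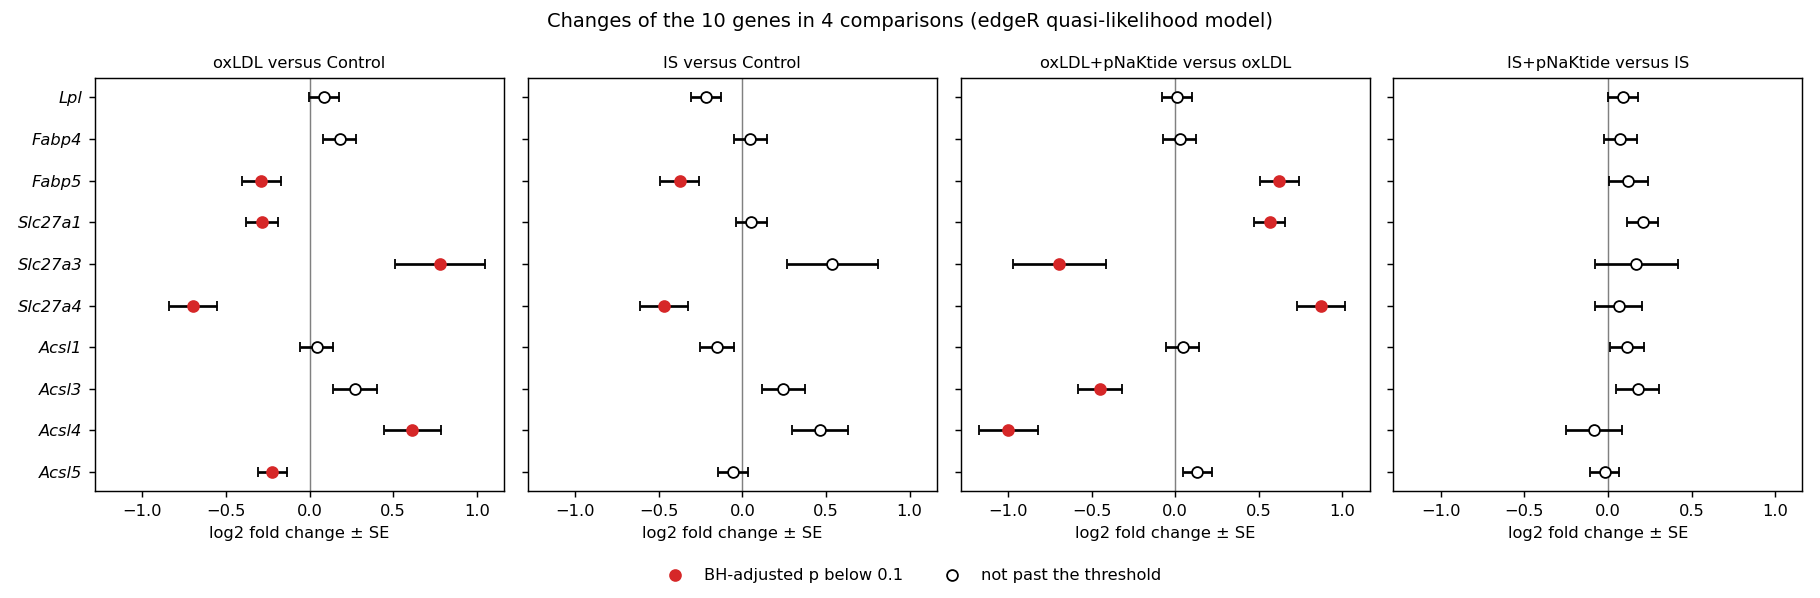
Log2 fold change (horizontal axis) with its SE for the 10 genes in 4 comparisons, from edgeR's quasi-likelihood model of all 30 libraries; filled points passed a BH-adjusted p-value of 0.1 and open points did not. Slc27a4 is at -0.70 with oxLDL and at 0.87 when pNaKtide is added, and no gene is filled for IS+pNaKtide against IS.

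Against Control cells, oxLDL+pNaKtide left none of the 10 genes past the threshold, where edgeR called 2.04% of all genes higher and 3.16% lower. Of the 10, 4 had an unadjusted p-value below 0.05 (3468 of all genes), and DESeq2 called 3, Fabp4, Fabp5 and Slc27a1, all higher, where it called 7.37% of all genes higher and 6.95% lower. Slc27a1 (0.28 ± 0.09, edgeR adjusted p = 0.102) and Fabp5 (0.33 ± 0.12, 0.118) were nearest to the threshold, both above Control, and Acsl4 was at -0.38 ± 0.18 (adjusted p = 0.248). The 95% interval for Slc27a4 ran from -0.10 to 0.45.

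Promoter windows (250 bases before to 50 after the start, RefSeq, GRCm38.p6) were found for 7 of the 10 genes, 10 windows in all, and not for Lpl, Fabp4 and Fabp5. The sequence before the start is shown for 3 genes. Slc27a4 is shown because it changed in the direction opposite to Acsl4 in each oxLDL comparison, and Acsl3 because its values tracked those of Acsl4 over the libraries. The 120 bases before each start are given 5′ to 3′ on the gene's strand, and capitals mark the GC box GGGCGG on either strand, with overlapping matches run together.
Slc27a4, chr2:29802514-29802633, plus strand: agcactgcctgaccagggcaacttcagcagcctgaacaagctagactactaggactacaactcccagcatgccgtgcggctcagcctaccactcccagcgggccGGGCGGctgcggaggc
Acsl4, chrX:142390536-142390655, minus strand: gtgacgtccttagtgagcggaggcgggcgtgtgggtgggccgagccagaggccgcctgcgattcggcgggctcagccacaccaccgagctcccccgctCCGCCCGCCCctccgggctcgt
Acsl3, chr1:78657705-78657824, plus strand: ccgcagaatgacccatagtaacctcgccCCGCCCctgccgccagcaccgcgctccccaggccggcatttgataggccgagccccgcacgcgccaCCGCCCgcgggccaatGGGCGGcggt

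The GC box is thus found 1 time before Slc27a4, 2 times before Acsl4 and 3 times before Acsl3, and in 7 of the 10 windows of these genes. It is also in 35.7% of all 32851 windows, and genes that rose and genes that fell both carry it. The CCAAT box, CCAAT on either strand, is in 6 of the 10 windows and 37.4% of all. The CRE half-site TGACGT is in 1 of the 10, that of Acsl4, and 7.51% of all. TATAAA and the nuclear receptor half-site AGGTCA are in none of the 10 windows, and in 13.6% and 16.3% of all. These are letters in a window, and no binding was measured.

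Next came the question of IS, given as a stand-in for renal failure. Between IS-treated and Control cells, 2 of the 10 genes passed the threshold. None was higher, where edgeR called 4.45% of all genes, and 2 were lower, Fabp5 (-0.37 ± 0.12, edgeR adjusted p = 0.0807) and Slc27a4 (-0.47 ± 0.14, 0.0752), against 3.49%. The Control libraries are those of the oxLDL comparison, so the 2 comparisons share their reference. Slc27a4 was at 94.1, 97.7, 103, 171 and 104 CPM with IS, and the value of 171 CPM belonged to IS replicate 4. The same library was at 1060 CPM for Fabp5, where the other IS libraries lay between 721 and 809, and at 28.6 CPM for Acsl4, where the others lay between 46.0 and 59.2.

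These calls lay close to the threshold. Each of them held in 2 of the 10 fits that left out 1 library of the IS or Control group, with a largest edgeR adjusted p of 0.223, without IS replicate 1. In these fits the log2 fold change stayed between -0.47 and -0.33 for Fabp5 and between -0.65 and -0.41 for Slc27a4. Without Control replicate 1 and IS replicate 4, 7 genes were called, 3 higher against 23.9% of all genes and 4 lower against 21.8%. Acsl4 (0.73 ± 0.15), Acsl3 (0.39 ± 0.13) and Slc27a3 (0.84 ± 0.28) were then higher, and Slc27a4 (-0.77 ± 0.11), Fabp5 (-0.56 ± 0.10), Lpl (-0.24 ± 0.09) and Acsl5 (-0.20 ± 0.08) lower, with edgeR adjusted p-values of 1.96e-05 to 0.0536. With all libraries, Acsl4 was at 0.46 ± 0.17 (adjusted p = 0.107) and Slc27a3 at 0.54 ± 0.27 (0.209). Lpl was at 3042 to 3532 CPM with IS and 3538 to 4264 CPM in Control, without overlap, but its change of -0.22 ± 0.09 was not called with all libraries (adjusted p = 0.142). Slc27a1 was at 77.6 ± 5.76 CPM with IS and 74.8 ± 8.63 CPM in Control (0.05 ± 0.09).

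Adding pNaKtide to IS changed none of the 10 genes past the threshold, and edgeR called 0% of all genes in either direction. Of the 10, only Slc27a1 had an unadjusted p-value below 0.05 (0.21 ± 0.09, adjusted p = 1), as did 564 of all genes, and DESeq2 called none of the 10. The difference between this change and that of pNaKtide alone was not called for any of the 10 or for any other gene (619 genes at an unadjusted p-value below 0.05, none of them among the 10, and none of the 10 by DESeq2). For Slc27a4 the change from IS to IS+pNaKtide was 0.06 with a 95% interval of -0.21 to 0.34, and for Acsl4 it was -0.08 with an interval of -0.41 to 0.25. Without Control replicate 1 and IS replicate 4 these changes were 0.26 ± 0.10 and -0.22 ± 0.14, and neither was called (edgeR adjusted p = 0.485 and 0.613). With all libraries, both intervals leave out the changes of 0.87 (95% interval 0.59 to 1.15) and -0.997 (-1.34 to -0.66) seen with oxLDL, which used other libraries. The changes with IS and with oxLDL were not tested against each other. With the dependence on GC content and length removed, the change of Acsl4 was -0.24 ± 0.07 with oxLDL and 0.01 ± 0.07 with IS. That of Slc27a4 was then 0.61 ± 0.10 with oxLDL and 0.06 ± 0.10 with IS.

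IS+pNaKtide against Control gave none of the 10, where edgeR called 0.139% of all genes higher and 0.218% lower. Of the 10, 6 had an unadjusted p-value below 0.05 (4022 of all genes), and DESeq2 called 3, Acsl3 and Slc27a1 higher and Slc27a4 lower, where it called 6.17% of all genes higher and 6.27% lower. Acsl3 had the smallest spread relative to its mean of the 10 genes in this group, with 503 to 573 counts per library. It was at 41.4, 41.7, 42.3, 42.7 and 43.0 CPM in ascending order and above all Control libraries (0.42 ± 0.13, edgeR adjusted p = 0.147). This spread was picked as the smallest and is no measure of how steady the gene is. Slc27a4 was at 119 ± 5.47 CPM, against 157 ± 27.7 in Control (-0.41 ± 0.14, adjusted p = 0.172). Without Control replicate 1 and IS replicate 4, 4 genes were called higher, against 17.2% of all genes, namely Slc27a3 (0.88), Acsl4 (0.51), Acsl3 (0.49) and Slc27a1 (0.23), and 2 lower, against 15.5%, namely Slc27a4 (-0.51) and Fabp5 (-0.33).

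The members' values also tracked each other over the 30 libraries. As a measure of likeness, Pearson's r of log2 CPM was 0.885 for Acsl3 and Acsl4, 0.869 for Lpl and Acsl1, 0.865 for Fabp5 and Slc27a4, and -0.956 for Slc27a4 and Acsl4. These values pool 6 groups, and the libraries differed in depth and in their trend over GC content and length, which accounted for 4.7% to 53.6% of a library's deviations. They describe the libraries only. In the plot of Slc27a4 against Acsl4, Control replicate 1 lay beside the oxLDL libraries and IS replicate 4 beside the other Control libraries.

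**Figure D3:**
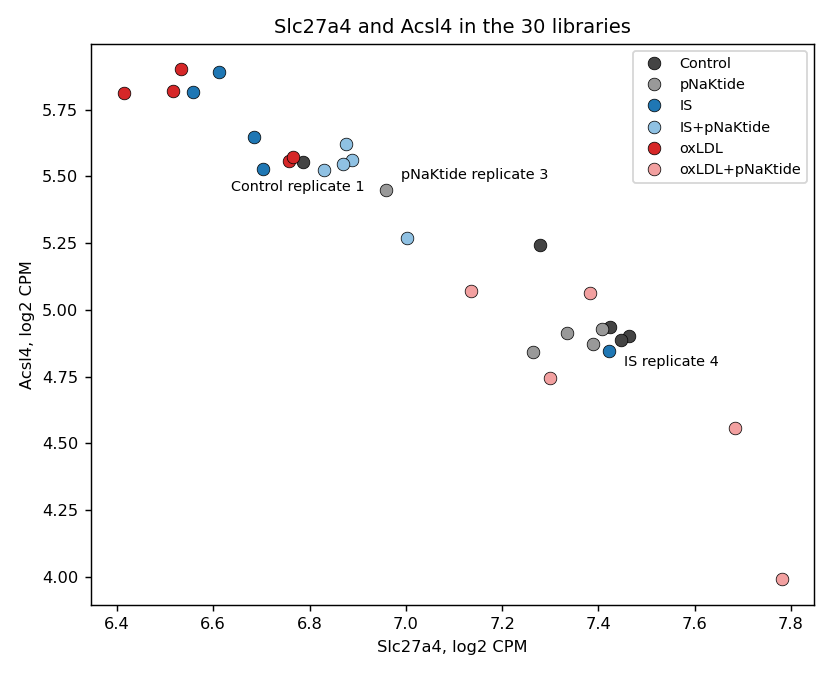
Log2 CPM of Slc27a4 (horizontal axis) and Acsl4 (vertical axis) in each of the 30 libraries, coloured by group. The oxLDL libraries lie at the upper left, those with oxLDL+pNaKtide at the lower right, and the 3 labelled libraries lie away from the rest of their groups (r = -0.956 over 30 libraries).

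Among the 9863 genes compared, excluding the 10 themselves, the genes most like Slc27a4 were Ptpa (r = 0.986) and St3gal3 (0.985), and those most like Acsl4 were Stag2 (0.980) and C330007P06Rik (0.979). Acsl3 was most like Ahcyl1 (0.931) and Hmgcs1 (0.918), Acsl1 like Ubqln1 (0.918) and Cs (0.915), and Lpl like Ubqln1 (0.847) and Mmd (0.834). The likeness was weaker for Acsl5 (Parp3, 0.842), Slc27a1 (Rce1, 0.790), Slc27a3 (Bag5, 0.787) and Fabp4 (Ndufaf1, 0.765). Fabp5 was most like its own pseudogene Gm6166 (0.985).

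The GC content of the transcripts moved with the changes across the whole data set. Over 12567 genes the log2 fold change correlated with GC content at r = -0.69 for oxLDL against Control, at -0.65 for IS against Control and at 0.63 for oxLDL+pNaKtide against oxLDL, values that are across genes, which are not independent replicates. Acsl4, the gene of lowest GC content among the 10 (39.0%), rose with oxLDL by about as much as the median of all genes of 38% to 40% GC (0.59), and Slc27a1, at 56.9%, fell by about as much as the median of genes of 56% to 58% GC (-0.30). Slc27a4, at 56.8%, fell by more than that median. Slc27a3, at 60.9%, rose where genes of 60% to 62% GC had a median of -0.33. With pNaKtide added, genes of 38% to 40% GC had a median of -0.79, which is close to the -0.997 of Acsl4, and genes of 56% to 58% GC one of 0.35.

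**Figure D4:**
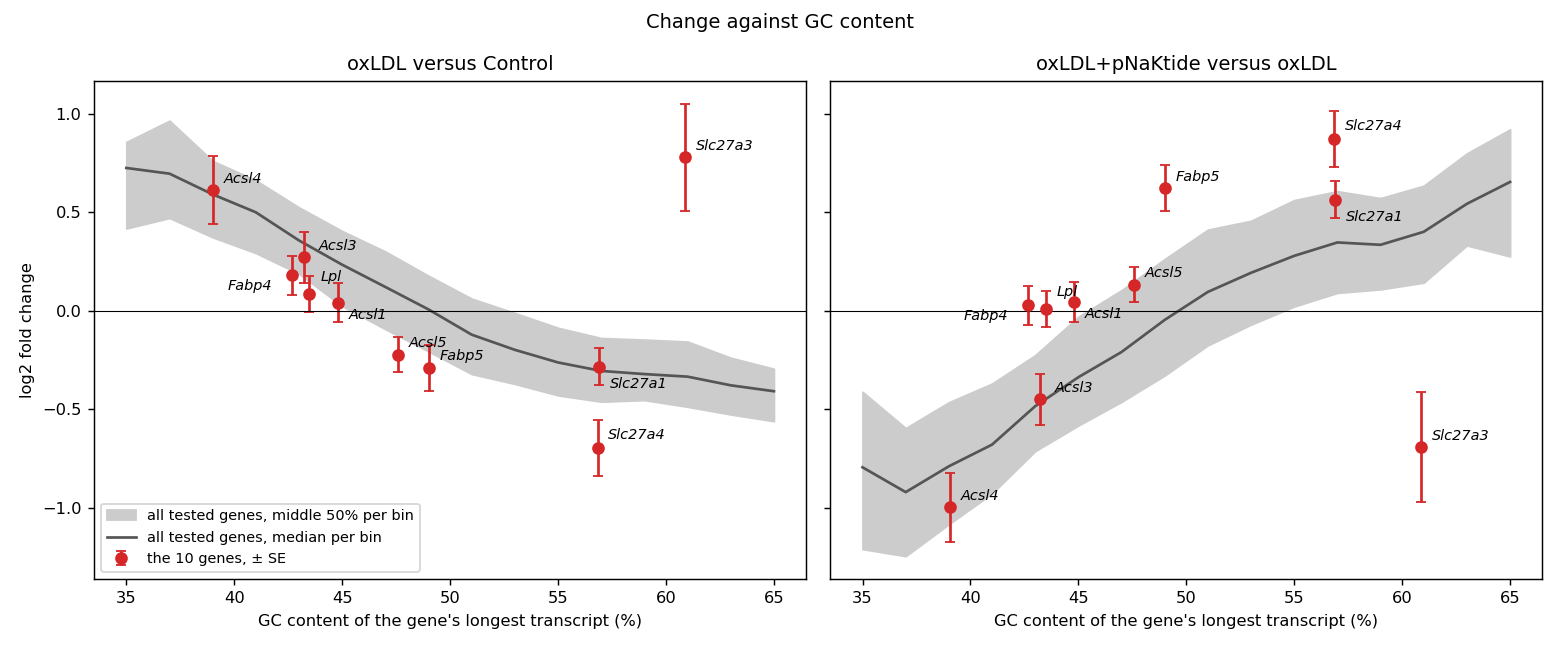
Log2 fold change (vertical axis) against the GC content of the longest transcript (horizontal axis, %) for oxLDL against Control (left) and oxLDL+pNaKtide against oxLDL (right). The line and the band are the median and the middle 50% of all tested genes of sufficient level in bins of 2 percentage points, and the red points are the 10 genes with their SE. Acsl4, Acsl3 and Slc27a1 lie inside the band in both panels, and Slc27a4, Slc27a3, Fabp5, Fabp4 and Lpl lie outside it in both. Acsl5 lies outside it on the left and near its upper edge on the right.

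With the trend of every library over GC content and transcript length taken out, 5 of the 10 were called for oxLDL against Control, 1 higher against 9.2% of all genes and 4 lower against 10.5%. Slc27a4 (-0.46 ± 0.10, edgeR adjusted p = 0.0103), Fabp5 (-0.29 ± 0.11, 0.0670), Acsl5 (-0.33 ± 0.10, 0.0396) and Slc27a3 (1.09 ± 0.29, 0.0232) kept their calls and directions. Acsl4 (0.04 ± 0.07, adjusted p = 0.739) and Slc27a1 (-0.07 ± 0.09, 0.651) lost theirs, and Lpl was called lower (-0.32 ± 0.12, 0.0790). For oxLDL+pNaKtide against oxLDL, 7 were then called higher against 17.3% of all genes and 2 lower against 19.5%. The higher genes were Fabp5 (0.67 ± 0.11), Slc27a4 (0.61 ± 0.10), Lpl (0.57 ± 0.12), Fabp4 (0.53 ± 0.10), Acsl1 (0.51 ± 0.13), Slc27a1 (0.36 ± 0.09) and Acsl5 (0.32 ± 0.11), Acsl4 (-0.24 ± 0.07) and Slc27a3 (-1.11 ± 0.30) were lower, and Acsl3 was at -0.01 ± 0.08. For IS against Control with the trend out, none was higher against 2.23% of all genes and 3 were lower against 1.82%, Lpl (-0.47 ± 0.12, adjusted p = 0.0494), Fabp5 (-0.38 ± 0.11, 0.0620) and Slc27a4 (-0.31 ± 0.10, 0.0880), while Acsl4 was at 0.03 ± 0.07 and Acsl3 at 0.01 ± 0.08. Scaling by library size alone shifted the median of all genes by 0.13 for oxLDL against Control and by -0.22 for oxLDL+pNaKtide against oxLDL. With that scaling edgeR called 5 genes higher (24.6% of all genes) and 1 lower (11.3%) in the first and 3 higher (13.4%) and 5 lower (38.1%) in the second. In the first, Lpl was then called higher (0.21 ± 0.08, adjusted p = 0.0509), opposite to its call with the trend out, Fabp4 and Acsl3 were called higher as well, and Slc27a1 (adjusted p = 0.200), Fabp5 (0.172) and Acsl5 (0.368) lost their calls. For the difference of the pNaKtide changes with oxLDL and alone, it shifted the median of all genes by -0.19 and called 1 gene higher, against 6.35% of all genes, and 4 lower, against 19.8%, in place of 3 and 2. Slc27a4 was the higher one (0.69 ± 0.16), and Slc27a1 (0.29 ± 0.13, adjusted p = 0.103) and Fabp5 (0.23 ± 0.12, 0.177) lost their calls. Slc27a4 and Slc27a3 kept their calls and directions in both oxLDL comparisons under both of these alternatives.

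The rest of the pathway was followed in 4 lists of genes, none of which had a member called for pNaKtide alone or for IS+pNaKtide against IS. With the trend over GC content and length removed, 11 of the 21 calls for oxLDL against Control, 12 of the 22 for oxLDL+pNaKtide against oxLDL and 7 of the 9 for IS against Control were lost. The shares of all genes called, against which the counts of these lists are to be read, were 18.1% higher and 18% lower with oxLDL, and 22.1% higher and 26.1% lower with pNaKtide added to it. Of 13 tested partners and relatives of the lipase, 5 were lower and none higher with oxLDL (median log2 fold change -0.21, all genes 0.04), and 7 were higher and 2 lower with oxLDL+pNaKtide against oxLDL (0.52, all genes -0.09). Lmf1 and Lmf2, the factors that fold lipases in the endoplasmic reticulum, were lower with oxLDL (-0.63 ± 0.16 and -0.58 ± 0.14, edgeR adjusted p = 0.00913 and 0.00818) and higher with pNaKtide added (0.83 ± 0.16 and 0.62 ± 0.14). Pnpla2 and Lipe, the lipases that break down stored triglyceride, moved in the same directions, Lipe by -0.33 ± 0.11 and 0.58 ± 0.11, and Pnpla2 was at 2255 ± 311 CPM in Control, 1678 ± 180 with oxLDL and 2870 ± 422 with oxLDL+pNaKtide. With the trend out both lost their calls with oxLDL (Lipe -0.13, adjusted p = 0.375, and Pnpla2 -0.15, 0.196) and kept those with pNaKtide added (0.39 and 0.44). Angptl4, a secreted inhibitor of lipoprotein lipase, was lower with oxLDL (-0.21 ± 0.09, adjusted p = 0.0669), and not called with the trend out (-0.13, 0.197). Lipg (-0.71 ± 0.12) and Vldlr (-0.59 ± 0.10), a lipase and a lipoprotein receptor, were lower with pNaKtide added, but with the trend out Vldlr was at -0.06 (adjusted p = 0.497) and Lipg at -0.70. Lipc, at under 0.3 CPM in both of these groups, also passed the threshold.

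Of 6 other tested carriers, Cd36, the scavenger receptor that takes up fatty acids and oxLDL, was higher with oxLDL (768 ± 101 CPM in Control, 1109 ± 131 with oxLDL, 0.53 ± 0.14, edgeR adjusted p = 0.0109) and lower with pNaKtide added (668 ± 130 CPM, -0.73 ± 0.14). Got2, a mitochondrial aminotransferase also described as a fatty acid-binding protein of the plasma membrane, went the other way (-0.62 ± 0.14 and 0.78 ± 0.14). Both were called with IS too, Cd36 at 0.45 ± 0.14 and Got2 at -0.45 ± 0.14 (adjusted p = 0.0817 and 0.0737). With the trend out, Cd36 was called in none of these comparisons (-0.06 with oxLDL, 0.02 with pNaKtide added and 0.01 with IS, adjusted p = 0.596, 0.892 and 0.944), and Got2 was called in all 3 (-0.43, 0.60 and -0.33). Fabp3 passed with oxLDL at under 1 CPM. The list had medians of 0.78 and -0.43 in the 2 oxLDL comparisons, which rest in part on genes with hardly any counts.

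Among 9 other acyl-CoA synthetases tested, 1 was higher and 4 were lower with oxLDL (median -0.09), and 4 were higher and 1 lower with pNaKtide added (0.16). Acss2 and Aacs, which activate acetate and acetoacetate, were lower with oxLDL (-0.62 ± 0.11 and -0.54 ± 0.10, edgeR adjusted p = 0.00460 and 0.00573), as was Acsf2 (-0.34 ± 0.08), and Acss3 was higher (0.59 ± 0.24, adjusted p = 0.0601). With pNaKtide added, Acsf2 rose by 0.44 ± 0.08, Acss2 rose by 0.25 ± 0.11 (edgeR adjusted p = 0.0737) and Acss3 fell by 0.93 on the log2 scale. With the trend out, Acss2 and Aacs kept their calls with oxLDL, and Acsf2 (-0.13, adjusted p = 0.168) and Acss3 (0.06, 0.886) lost theirs. With pNaKtide added, Acsf2 was then at 0.20 and Acss2 at 0.53, both called, and Acss3 at -0.22 and not called (0.489). Of 17 genes that bind or hydrolyse acyl-CoA, 5 were higher and 3 lower with oxLDL (median 0.21), and 4 were higher and 2 lower with pNaKtide added (0.11). Acbd5 (0.71 ± 0.19) and Acot13 (0.43 ± 0.11) were among the higher and Acbd6 (-0.57 ± 0.16) and Acot7 (-0.57 ± 0.14) among the lower with oxLDL, and Acbd6 rose by 1.01 ± 0.16 and Dbi, the main acyl-CoA binding protein, by 0.51 ± 0.10 with pNaKtide added. With the trend out, Acbd5 (0.18, adjusted p = 0.136) and Dbi (0.12, 0.266) lost those calls, and Acot13, Acot7 and Acbd6 kept theirs. With IS against Control, edgeR called 4.45% of all genes higher and 3.49% lower. Of the lists, 2 of 13 lipase partners, 1 of 6 carriers, 2 of 9 synthetases and 2 of 17 acyl-CoA binding or hydrolysing genes were lower. The higher genes were 1 carrier and 1 synthetase. With the trend out, 7 of these 9 calls were lost.

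The summed level of the 8 adipocyte markers was 6561 to 10070 CPM in Control (median 9263), 6060 to 8730 CPM with oxLDL (6649), 8318 to 10630 CPM with oxLDL+pNaKtide (9472) and 5713 to 7998 CPM with IS (6244). Of the 8 markers 3 were lower with oxLDL (18% of all genes), 4 were lower with IS (3.49%) and 6 were higher with oxLDL+pNaKtide against oxLDL (22.1%), among them Cfd, at 686 ± 152, 474 ± 82.4 and 886 ± 192 CPM in Control, oxLDL and oxLDL+pNaKtide. Of the 7 markers of preadipocytes or fibroblasts 2 were lower with oxLDL and 2 with IS, and with oxLDL+pNaKtide against oxLDL 2 were higher and 1 was lower. Their summed level was 2223 to 3261 CPM in Control (median 2847), 1713 to 2035 CPM with oxLDL (1982), 1739 to 3170 CPM with oxLDL+pNaKtide (2202) and 1248 to 2529 CPM with IS (1452). Most of this sum was Col1a1, with means of 2292 CPM in Control and 1547 CPM with oxLDL. Pdgfra went the other way (116 and 137 CPM) and was not called higher. Most of the adipocyte sum was Cidec, at 5853 and 4631 CPM. In cultures sequenced in bulk, fewer cells of a type and less RNA per cell cannot be told apart, and the part of these markers in the changes of the 10 genes was not tested. The macrophage list summed to 4.27 to 8.47 CPM in all groups, and the endothelial list to at most 0.61 CPM.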

How the data were processed

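RNA sequencing libraries of 3T3-L1 cells, 5 for each of 6 groups, were analysed. Per the labels and the paper's methods, the authors prepared stranded mRNA libraries, trimmed the reads with Trimmomatic 0.38, aligned them to GRCm38 with HISAT2 2.1.0 and counted reads per gene with GenomicAlignments. The deposited counts are whole numbers, without normalization or pooling. The FPKM values deposited by the authors were used for levels between genes and 1 alternative. A table of normalized counts was not used. The sources used here give neither the annotation release nor the strand setting. The labels name adipose tissue in the extraction text but 3T3 cells as the source, and the libraries were taken as cells. Depth was 6945498 to 15159877 counted reads per library.

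The 10 genes, the lists and the tests were chosen with earlier results of these data known. Symbols and positions came from GENCODE M21 (54079 of 54232 genes with a symbol), and promoters from RefSeq. Genes whose counts summed to more than 14 entered a fit of the 6 groups by edgeR 4.0.16 (R 4.3.3), TMM and the robust quasi-likelihood test, with 7 comparisons of groups and 2 differences of changes, all two-sided. P-values were BH-adjusted over all genes, and called below 0.1. A prior count of 2 was used for log2 CPM. Intervals are at 95%. No libraries of a group were duplicates (lowest chi-square per degree of freedom 1.28 over 60 pairs). The steps were tested on simulated data.

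From each list the text names at most 2 genes per direction and comparison with the smallest adjusted p, and genes whose mean log2 CPM reaches 6. Not every gene that met this rule is named. Lipc and Fabp3, Cfd and the defining markers at or near 0 were named after their values were seen. For likeness, the 2 genes with the highest r among those whose mean log2 CPM reaches 3 were taken. Pseudogene copies are transcripts that match over at least 200 bases at 90% identity or more (BLAST+ 2.17.0).

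Alternatives were DESeq2 1.42.0, its size factors (RLE), library size only, more than 14 counts in every library (11567 genes, which leaves out Slc27a3), a summed count of 1 or more (29409 genes), a replicate block, a threshold of 0.05, offsets that remove the trend of every library over GC content and transcript length (mgcv 1.9.3), limma 3.58.1 on log2(FPKM + 1) where the mean FPKM reaches 0.5 (13639 genes), the compared groups alone, leaving out Control replicate 1 and IS replicate 4 together, leaving out each library, and, added after the data were seen, Fabp5 summed with its pseudogenes.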

Additional observations from a re-analysis of the deposited data

Results flagged for a closer look

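In 7 of the 60 sets of 5 libraries of 1 gene and group, 1 library lay far from the other 4 by Dixon's criterion, where chance gives about 1 in 20. IS replicate 4 was high for Slc27a4 (171.4 CPM, others 94.07 to 104) and for Fabp5 (1060 CPM, others 721.3 to 809.2). Control replicate 1 was low for Fabp5 (821.3 CPM, others 1111 to 1190). pNaKtide replicate 3 was high for Acsl3 (37.21 CPM, others 29.84 to 31.78) and for Acsl4 (43.54 CPM, others 28.49 to 30.29). These 3 libraries also stood apart from their groups on the first principal component, as did oxLDL+pNaKtide replicate 4, for which no gene met the criterion. oxLDL replicate 3, with 7903355 reads the smallest library of its group, was high for Fabp4 (3087 CPM, others 2453 to 2610), and oxLDL replicate 1 was low for Slc27a1 (54.13 CPM, others 62.62 to 63.9).

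The change with pNaKtide differed between oxLDL-treated and untreated cells for 5 genes in edgeR's test of the difference of the log2 fold changes, 3 higher against 12.8% of all genes and 2 lower against 11.8%. The differences were 0.89 for Slc27a4 (adjusted p = 0.0188), 0.49 for Slc27a1 (0.0264), 0.43 for Fabp5 (0.0716), -0.49 for Acsl3 (0.0680) and -0.89 for Acsl4 (0.0268). With the trend over GC content and length removed, Acsl4, Slc27a1 and Acsl3 were not called (adjusted p = 0.166, 0.297 and 0.608).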

How the results depend on the processing

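The number of the 10 genes called was within 1.5 times that given for oxLDL against Control (6) under 11 alternatives (4 to 8) and for oxLDL+pNaKtide against oxLDL (6) as well (5 to 9), and it was 0 in every fit for pNaKtide against Control, IS+pNaKtide against IS and the difference of changes with IS. In what follows the share of all genes called in the same fit is in parentheses, except where 1 library was left out. For IS against Control (2 genes, 7.94%), the count was 0 at an adjusted p of 0.05 (0.646%) and with only the compared groups (0%), 1 with at least 1 count (1.86%), 4 with DESeq2 (23.4%) or more than 14 counts in every library (21%), and 7 when Control replicate 1 and IS replicate 4 were both left out (45.8%). For oxLDL+pNaKtide against Control (0 genes, 5.2%), it was 3 with DESeq2 (14.3%) and with the GC and length trend out (9%), 2 with more than 14 counts in every library (14.4%), the replicate block (8.21%) and limma (12.2%), and 1 with RLE (5.17%) or library size only (9.77%). For IS+pNaKtide against Control (0 genes, 0.358%), it was 3 with DESeq2 (12.4%), the replicate block (6.64%) and only the compared groups (5.72%), 1 with the trend out (2.07%), and 6 when the same 2 libraries were left out (32.7%). For the difference of changes with oxLDL (5 genes, 24.6%), it was 3 at an adjusted p of 0.05 (13.4%) and with the trend out (10.3%). Leaving out each library gave 3 to 7 for oxLDL against Control, 0 to 6 for IS against Control, 0 to 2 for oxLDL+pNaKtide against Control, 0 to 6 for IS+pNaKtide against Control and 3 to 6 for the difference of changes with oxLDL. The share of all genes called is not given for these fits, so their counts are not read as a result about the 10 genes. For oxLDL against Control the count was 3 without Control replicate 2 and without oxLDL replicate 2. For IS against Control it was 6 when either Control replicate 1 or IS replicate 4 was left out, and 0 for each other library. For IS+pNaKtide against Control it was 6 when Control replicate 1 was left out and 0 for each other library. For the difference of changes with oxLDL it was 3 when Control replicate 2, 4 or 5, oxLDL replicate 2 or 5, oxLDL+pNaKtide replicate 4 or 5 or pNaKtide replicate 3 was left out. A direction reversed with a call in 1 of the fits for Lpl in oxLDL against Control with the trend out (-0.32), and for Lpl (-0.21) and Acsl1 (-0.18) in oxLDL+pNaKtide against oxLDL by library size only, where the median of all genes was -0.30. Sign changes between values of which none was called were not counted as reversals. Apart from the shift of all genes by library size only, the causes of these changes were not tested. Whether the replicate numbers pair the libraries is not known. Of 75 correlations between same-numbered libraries of different groups, 37 were over 0.1 (range -0.66 to 0.79). Libraries of different numbers were not compared, so this tally cannot decide it. For replicate 4, the correlations among Control, IS, oxLDL and oxLDL+pNaKtide ran from 0.582 to 0.79. Those of IS+pNaKtide with these groups ran from -0.329 to -0.312, and those of pNaKtide from -0.068 to -0.013. The replicate block left 6 genes called for oxLDL+pNaKtide against oxLDL (49.6%) and gave 7 for oxLDL against Control (38.8%) and 3 for IS against Control (17%). The low counts of Slc27a3, 3 to 51 per library, limit its precision.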
